A study of Saccharomyces cerevisiae with 6 samples.

Results

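Tryptophan, phenylalanine and tyrosine are made in yeast by a shared route, the shikimate pathway, which ends in chorismate. From chorismate 1 branch leads to tryptophan and another to phenylalanine and tyrosine. The genes described here are the 10 that encode the shared steps (ARO1, ARO2, ARO3, ARO4), the tryptophan branch (TRP1 to TRP5) and the entry to the other branch (ARO7). Their probe sets were found by gene symbol in the platform annotation, a rule that uses no measured value, although the genes were picked with earlier results of these data known. Each of the 10 genes was covered by 1 probe set naming it alone, and all 10 probe sets were among the 6931 tested, of 9275 in all other than controls. Many genes of this pathway are known targets of Gcn4, the activator of the general amino acid control, and TRP1 is at the same time a selectable marker that many laboratory strains lack and that plasmids commonly carry.

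The levels come from total RNA of budding yeast, Saccharomyces cerevisiae, hybridised to 6 oligonucleotide arrays with 1 sample each. Arrays K91A 1 to K91A 3 are from cells whose histone H4 has alanine in place of lysine 91, and WT 1 to WT 3 are from cells with unchanged histone H4. By the labels, all cells were taken in exponential growth in YPD, a rich glucose medium that contains amino acids. The strain background, the marker genotype, the age of the cultures and whether the H4 allele sits on a plasmid are not given in the sources used here, nothing states that replicates came from separate cultures, and the p-values then reflect no more than the spread between these arrays, which may be technical.

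The title of array K91A 3 names the mutant, whereas its description names the WT strain, and it was grouped by title. It was the dimmest array, with a median intensity of 745, against 1827 to 3117 on the other 5, and it had 51 empty cells where the others had 33. Over all probe sets tested it correlated more closely with the other K91A arrays (Pearson's r 0.764 to 0.845) than with the WT arrays (0.644 to 0.657). The actin control probe sets had a 5' over 3' signal ratio, which reads RNA integrity and labelling, between 0.843 and 0.877 in K91A. In WT the ratio was 0.110, 0.114 and 0.365 on WT 1, 2 and 3. WT 1 and WT 2 were thus close, and nothing states that these 2 arrays are separate preparations. An alternative given below averages them. Every K91A array had a higher ratio than every WT array. What the ratio reads thus cannot be told apart from the H4 allele in the differences below, and its part was not tested. A fit in which the relation of signal to gene length was removed is given below, but it does not use the ratio. Levels below are log2(intensity + 16) after quantile normalization, and differences are K91A minus WT on that scale, tested with limma, with p-values adjusted over the whole table and a threshold of 0.05. The arrays read a whole culture, so fewer cells that carry a transcript and less of it per cell cannot be told apart.

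TRP1 encodes phosphoribosylanthranilate isomerase, which acts in the middle of the tryptophan branch. As deposited, its intensity was 9397, 15894 and 4878 on K91A 1, 2 and 3, against 337, 401 and 326 on WT 1, 2 and 3. After normalization its level was 13.21, 14.24 and 13.43 on the K91A arrays, against 8.24, 8.43 and 8.37 on the WT arrays. The groups lay far apart, and K91A 3 lay with the other arrays titled K91A. TRP1 rose in K91A, and its log2 fold change was 5.28 (SE 0.29, 95% interval 4.60 to 5.96, limma adjusted p = 0.0012, n = 3 each). None of the other 6930 probe sets tested had a higher value.

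In WT, TRP1 lay at the 9.94 to 11.5 percentile of all probe sets, below the line of 9.57 that marks the dimmest 25% of an array. The table has no detection calls, so its level in WT may be background and the measured fold may understate the difference. The filter used the mean over all 6 arrays, and TRP1 passed it through its K91A values. Its place among those tested and its rank thus rest on the group where it is high. With no filter its log2 fold change was 5.28 (limma adjusted p = 0.0012). The call held without any 1 array, with values between 5.07 without K91A 2 and 5.62 without K91A 1, and without K91A 3 the value was 5.30. With K91A 3 counted as WT it was 4.11 and did not pass (adjusted p = 0.320), a setting in which limma called 0 in the whole table (1056 had an unadjusted p under 0.05).

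None of the other 9 genes rose in K91A. Their log2 fold changes were all negative, between -1.10 and -0.12, with a median of -0.70, where the median of all probe sets tested was -0.07. A negative value was found for 3702 of the 6931 probe sets tested. The 9 values are not independent, since K91A 2 had the lowest K91A level for 9 of the 9 genes. ARO2 and TRP2 fell, and the other 7 did not pass. Falls were thus called for 2 of the 9, against 14.8% of all probe sets tested, and an increase for 1 of the 10 genes, against 15.4%. The values of the groups did not overlap for 6 of the 9 genes, which is to be read against 51.1% of all probe sets tested. In either direction 3 of the 10 were called, against 30.2% of all probe sets tested, so the share called was that of the array as a whole.

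**Figure D1:**
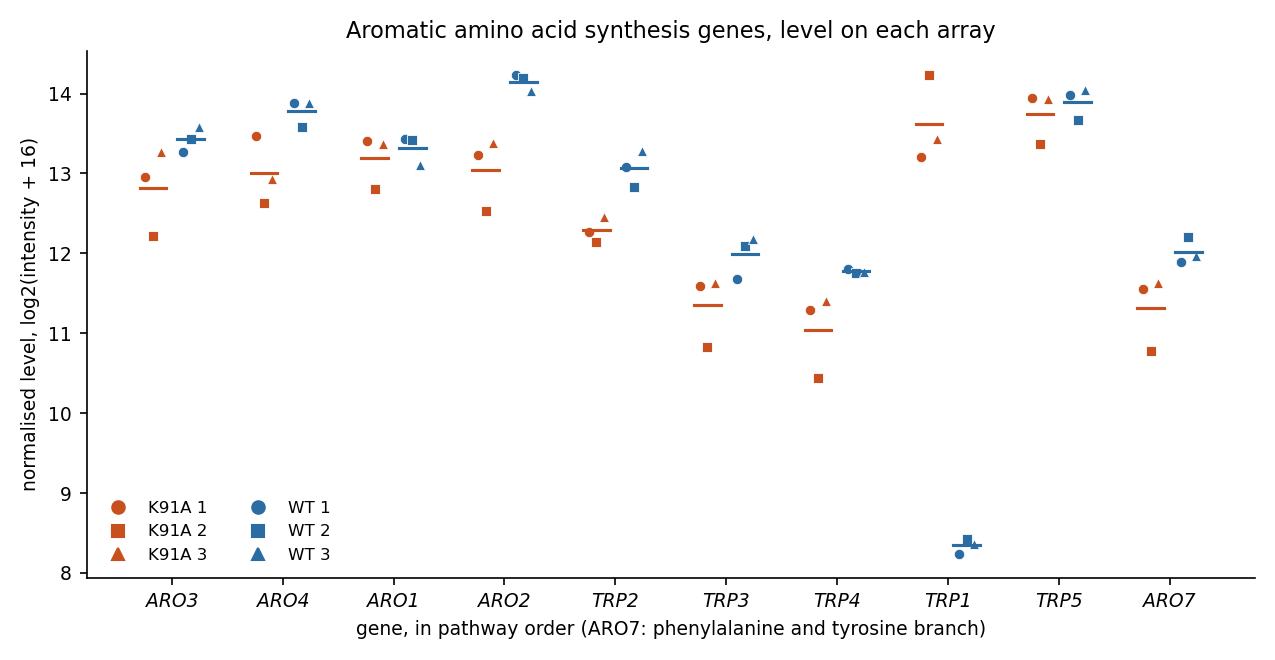
Normalised level, log2(intensity + 16), of the 10 genes on each array, with K91A arrays left of WT arrays (symbols are arrays, bars are group means). Levels of different genes come from different probe sets and are not comparable. TRP1 lies between 13.21 and 14.24 on the K91A arrays and between 8.24 and 8.43 on the WT arrays, while the other 9 means are lower in K91A.

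The pathway begins with ARO3 and ARO4, which encode the isoenzymes of DAHP synthase, inhibited by phenylalanine and by tyrosine in that order. ARO3 had a level of 12.81 ± 0.54 in K91A and 13.43 ± 0.16 in WT (SD, n = 3 each), and its groups met at 13.26, the value of both K91A 3 and WT 1. ARO4 had 13.47, 12.63 and 12.93 on the K91A arrays, against 13.88, 13.58 and 13.88 on the WT arrays, with no overlap. Neither passed the test. The log2 fold change was -0.61 for ARO3 (95% interval -1.29 to 0.06, limma adjusted p = 0.145) and -0.77 for ARO4 (95% interval -1.35 to -0.19, adjusted p = 0.0523). ARO4 lay so close to the threshold that it passed without K91A 1 (-1.02, adjusted p = 0.0259), with median centring (-1.02, 0.0241), on the values as deposited (-1.67, 0.0362) and with the length trend removed (-0.73, 0.0493).

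ARO1 encodes a single large protein that carries the enzymes from the product of DAHP synthase to the last step before chorismate. Its level was 13.41, 12.81 and 13.37 on the K91A arrays, against 13.44, 13.42 and 13.10 on the WT arrays. The groups overlapped, and the log2 fold change was -0.12 (95% interval -0.65 to 0.40, limma adjusted p = 0.690). That interval holds the value of ARO3 but not those of ARO4 or ARO2, whose own intervals overlap it. Whether the change of ARO1 differs from theirs was not tested. Without K91A 2 the value of ARO1 was 0.070. With a gene length of 4767 bases ARO1 is the longest of the 10, and with the length trend removed its value was -0.46 (adjusted p = 0.155).

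ARO2 encodes chorismate synthase, the step at which the branches part. Its deposited intensity was 9512, 5448 and 4672 on K91A 1, 2 and 3, against 26371, 32849 and 17818 on WT 1, 2 and 3. Its normalised level was 13.23, 12.53 and 13.38 on the K91A arrays, against 14.23, 14.19 and 14.03 on the WT arrays, so every K91A value lay below every WT value. ARO2 fell in K91A, by a log2 fold change of -1.10 (SE 0.24, 95% interval -1.68 to -0.53, limma adjusted p = 0.017), which is 2.15-fold. It had the lowest value of the 10 genes, and 696 of the other 6930 probe sets had a lower one. The call was lost without WT 1 (-1.07, adjusted p = 0.0663), without WT 2 (-1.08, 0.0684) and with WT 1 and WT 2 averaged (-1.07, 0.0675). Without K91A 3 it was -1.25 (adjusted p = 0.0154).

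In the tryptophan branch, TRP2 encodes the chorismate-binding subunit of anthranilate synthase. Its deposited intensity was 5388, 4241 and 2352 on K91A 1, 2 and 3, against 11963, 12183 and 10432 on WT 1, 2 and 3. The normalised level was 12.27, 12.14 and 12.45 on the K91A arrays, against 13.09, 12.83 and 13.28 on the WT arrays, with no overlap and with the smallest spread of any of the 10 genes in K91A (SD 0.16). TRP2 fell, with a log2 fold change of -0.78 (SE 0.20, 95% interval -1.25 to -0.31, limma adjusted p = 0.0262). The call was lost without K91A 1 (-0.79, adjusted p = 0.0654) and without any 1 WT array (-0.77, -0.89 and -0.65 without WT 1, 2 and 3, at adjusted p of 0.0937, 0.0604 and 0.0638), with WT 1 and WT 2 averaged (-0.83, 0.0703) and on the values as deposited (-1.60, 0.0662).

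TRP3 encodes the partner of TRP2 in anthranilate synthase, a subunit that also carries the indole-glycerol-phosphate synthase of a later step. Its level was 11.35 ± 0.45 in K91A and 11.99 ± 0.27 in WT (SD, n = 3 each). The log2 fold change was -0.63 (95% interval -1.29 to 0.03, limma adjusted p = 0.125). The 2 subunits of this complex thus had close values, of which TRP2 passed and TRP3 did not, and whether they differ from each other was not tested.

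TRP4, which encodes anthranilate phosphoribosyltransferase, had 11.29, 10.43 and 11.41 on the K91A arrays, against 11.81, 11.76 and 11.77 on the WT arrays. The SD was 0.53 over the K91A arrays and 0.03 over the WT arrays, and the groups did not overlap. Its log2 fold change was -0.73 (95% interval -1.40 to -0.07, limma adjusted p = 0.0887), and it passed with array weights (-0.54, adjusted p = 0.0408).

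TRP5 encodes tryptophan synthase, the last step. Its level was 13.94, 13.37 and 13.93 on the K91A arrays, against 13.98, 13.67 and 14.04 on the WT arrays, and the groups overlapped. The log2 fold change was -0.15 (95% interval -0.65 to 0.35, limma adjusted p = 0.612), and it was 0.041 without K91A 2 and 0.035 with array weights. ARO7, which encodes chorismate mutase and opens the route to phenylalanine and tyrosine, had 11.55, 10.78 and 11.62 on the K91A arrays, against 11.89, 12.20 and 11.97 on the WT arrays. Its groups did not overlap, and its log2 fold change was -0.70 (95% interval -1.34 to -0.07, limma adjusted p = 0.0883).

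**Figure D2:**
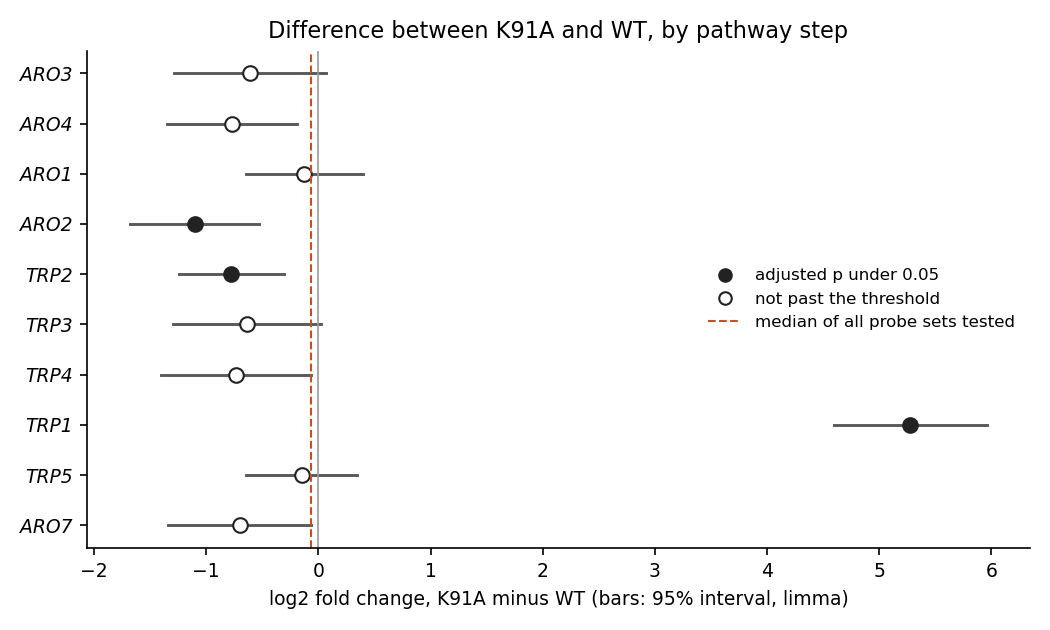
Log2 fold change, K91A minus WT, of the 10 genes in pathway order, with 95% intervals from limma (n = 3 each). Filled circles passed an adjusted p of 0.05, and the dashed line is the median of all probe sets tested at -0.07. TRP1 lies at 5.28 and the other 9 genes lie between -1.10 and -0.12.

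The contrast between TRP1 and the rest of its pathway was tested on the difference, array by array, between the level of TRP1 and that of each other step. The change of TRP1 exceeded that of every other step, by 5.40 over ARO1 (95% interval 3.95 to 6.86), by 5.43 over TRP5 (3.98 to 6.88) and by up to 6.38 over ARO2 (4.80 to 7.97). These intervals rest on the 6 arrays alone. For each of the 9 steps the K91A arrays had the higher difference in 3 of 3, and the exact two-sided permutation p was 0.1, the smallest that 3 against 3 can give. Limma called the difference for 9 of 9 steps, but also for 100% of the other probe sets. All of these tests share the values of TRP1, so the limma p-values are too small and are not given. TRP1 had the highest log2 fold change of all probe sets tested, so its change had to exceed that of every step. The contrast is thus one of TRP1 with the array as a whole, and it shows nothing particular to the pathway.

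The K91A arrays differed among themselves in a way that ran through the pathway. Of the 3 K91A arrays, K91A 2 had the lowest level for 9 of the 9 genes other than TRP1, where it had the lowest level for 45.3% of all probe sets tested. The pattern was not confined to these 9 genes. K91A 2 was also lowest for PHA2, TYR1 and ARO8 of the phenylalanine and tyrosine branch. Of the breakdown genes it was lowest for ARO9, ARO10 and PDC5 and highest for ARO80. The median of the 9 was 12.96, 12.22 and 12.93 on K91A 1, 2 and 3, against 13.26, 13.42 and 13.28 on WT 1, 2 and 3. TRP1 itself was highest on K91A 2. The SD was higher over the K91A arrays than over the WT arrays for 8 of the 9, as for 68.6% of all probe sets tested, with a median SD of 0.45 in K91A and 0.17 in WT, against 0.32 and 0.20 over all probe sets. Without K91A 2 the 9 log2 fold changes, which then have to be higher, lay between -0.87 (ARO2) and 0.070 (ARO1). ARO2 and TRP2 passed without K91A 2, and also without K91A 3.

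**Figure D3:**
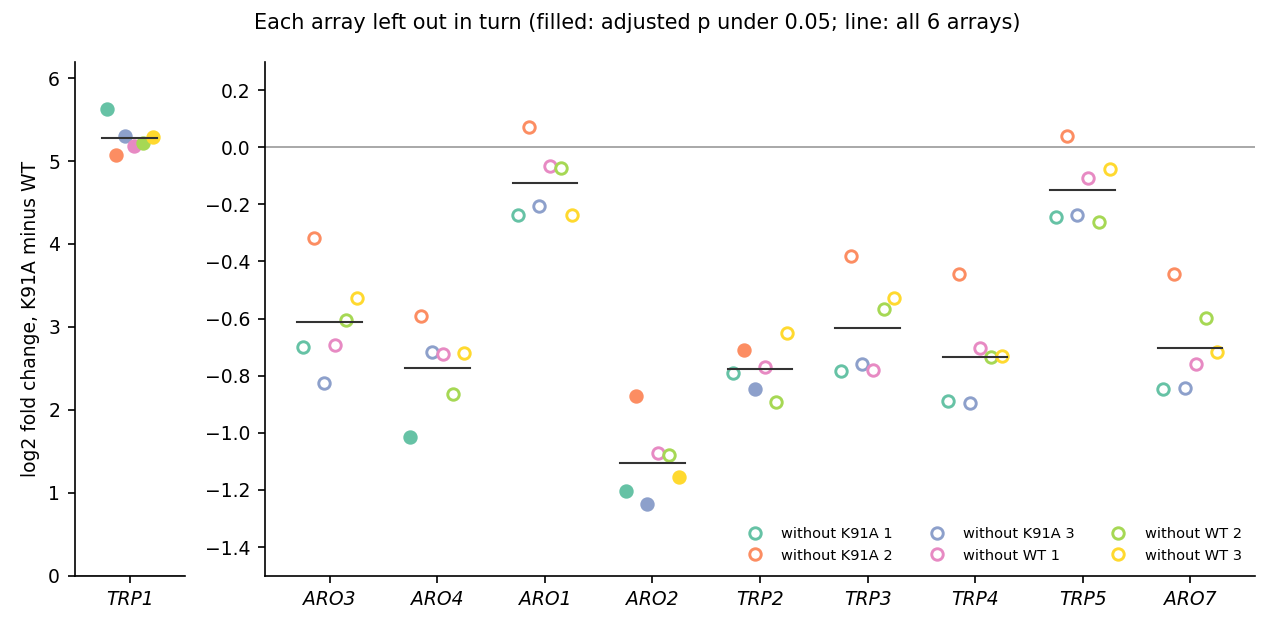
Log2 fold change, K91A minus WT, with each of the 6 arrays left out in turn (colours), with filled circles where the adjusted p was under 0.05 and a line at the value from all 6 arrays. TRP1, drawn on its own scale at the left, stays between 5.07 and 5.62, while the call of ARO2 ends without WT 1 or WT 2. Without K91A 2 the values of ARO1 and TRP5 lie above 0.

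None of the measured genes next to TRP1 on chromosome IV passed the test. By gene order TRP1 lies between SOK1 and GAL3, and no gene of the RefSeq table (assembly R64) at these places overlaps it. SOK1 had 10.79, 11.61 and 10.99 on the K91A arrays, against 10.86, 11.04 and 10.52 on the WT arrays (log2 fold change 0.32, limma adjusted p = 0.394). GAL3, which encodes the sensor of galactose, had 10.87, 10.88 and 10.27, against 10.29, 9.97 and 10.16 on the WT arrays (0.54, adjusted p = 0.130). MAF1, a repressor of RNA polymerase III and the next gene beyond SOK1, had a log2 fold change of -0.42 (adjusted p = 0.251). Without K91A 3 GAL3 passed (0.73, adjusted p = 0.0424), and without K91A 2 MAF1 passed (-0.68, adjusted p = 0.0419). YDR010C, the next beyond GAL3, has no probe set of its own name here.

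The genes whose values over the 6 arrays were most like those of TRP1, by Pearson's r among 5147 other genes, were YMR090W, GTT2, MCH4, UCC1 and YCR102C, with r of 0.9975 to 0.9995. The 6 points fall into the K91A and WT arrays, so such an r mostly restates a difference between the groups, and it is given only as a measure of likeness. GTT2 encodes a glutathione transferase. The log2 fold changes of the 5 were 0.88 to 3.30, against 5.28 for TRP1.

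Other selectable markers gave a mixed picture. ADE2, an enzyme of adenine synthesis, had a level of 9.07 ± 0.32 in K91A and 14.80 ± 0.09 in WT (SD, n = 3 each) and fell with a log2 fold change of -5.73 (limma adjusted p = 0.000186). Its difference was opposite in sign to that of TRP1, and no probe set tested had a lower value. The highest and the lowest value of all probe sets tested thus belonged to TRP1 and ADE2, both selectable markers. Whether the marker genotype plays a part was not tested. ADE2 had 8.86, 8.91 and 9.44 on K91A 1, 2 and 3, below the line of 9.57 given above for dim levels. Its level in K91A may thus be background, and the measured fall may understate the difference. ADE2 passed the filter through its WT values. Its rank among those tested thus rests, as that of TRP1 does, on the group where it is high. LEU2 rose as read by the probe set with the highest mean (0.82, adjusted p = 0.0233). A 2nd LEU2 probe set also rose (1.89, adjusted p = 0.0140), and a 3rd did not pass (1.99, 0.0535). On WT 1, 2 and 3 the 2nd had 9.60, 9.63 and 10.98, and the 3rd had 8.68, 8.74 and 10.38. Both were thus highest on WT 3, as was the actin ratio in WT. Whether RNA integrity or labelling plays a part was not tested. The call of the brightest was lost with the replicate number as a block (adjusted p = 0.0508), and its value was 0.000799 as deposited. That call was also lost without K91A 1 (0.0509), K91A 3 (0.0541), WT 1 (0.0868) or WT 2 (0.102). The call of the 2nd was lost without WT 1 (0.0541) or WT 2 (0.0564) and on the values as deposited (1.30, 0.204). URA3 (0.54, adjusted p = 0.264) and MET17 (0.73, adjusted p = 0.172) did not pass, but did so without K91A 2. HIS3 and LYS2 were too dim to be tested.

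Around the pathway, 45 tested genes of 7 lists were examined, of which 6 rose and 8 fell, a share called close to the 30.2% of all probe sets tested. These counts depend on the scaling and on the WT arrays: 0 rose and 2 fell (RKI1 and SER1) on the values as deposited, where the median of all probe sets was -0.82, 2 rose and 11 fell with median centring, 2 rose and 2 fell without WT 1, and 1 rose and 2 fell without WT 2. Without K91A 3, 8 rose and 10 fell. The counts of single lists, here and below, are to be read against the 15.4% called higher and 14.8% called lower of all probe sets tested. In the phenylalanine and tyrosine branch after ARO7, TYR1, which encodes prephenate dehydrogenase of the tyrosine arm, fell. It had 10.16, 9.38 and 10.14 on the K91A arrays, against 10.90, 10.98 and 11.11 on the WT arrays (log2 fold change -1.10, limma adjusted p = 0.0217). PHA2, prephenate dehydratase of the phenylalanine arm, had -0.64 (adjusted p = 0.0626), and the aromatic aminotransferase ARO8 had -0.28 (adjusted p = 0.254). The TYR1 call was lost without any 1 WT array (adjusted p = 0.0697, 0.0793 and 0.0639 without WT 1, 2 and 3).

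Of 4 genes of aromatic amino acid breakdown 1 rose and 1 fell. ARO10, which encodes phenylpyruvate decarboxylase, fell (log2 fold change -1.17, limma adjusted p = 0.0174), and PDC5, a pyruvate decarboxylase, rose (1.31, adjusted p = 0.0203), to 13.88, 12.86 and 13.78 on the K91A arrays, against 11.99, 12.12 and 12.47 on the WT arrays. The aminotransferase ARO9 (-0.65) and the activator ARO80 (0.57) did not pass, although ARO80 did without K91A 3 (1.27, adjusted p = 0.0189). The ARO10 call was lost without WT 1 (adjusted p = 0.0649) or WT 2 (0.0694), and the PDC5 call without K91A 1 (0.0572), WT 1 (0.0752) or WT 2 (0.0742) and with median centring (1.10, 0.0555). ABZ1 (0.31) and ABZ2 (-0.34), which lead from chorismate to p-aminobenzoate, did not pass, and neither had an unadjusted p under 0.05.

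Among 15 tested genes that supply erythrose phosphate, PRPP, serine and glutamine, 2 rose and 2 fell. TKL2, the minor transketolase, rose by all 3 of its probe sets, with log2 fold changes of 1.38 (limma adjusted p = 0.0175), 1.80 (0.0084) and 2.70 (0.0018). TKL1, the main transketolase, had -0.04 (adjusted p = 0.902). RKI1, ribose phosphate isomerase, fell by 1.79 on the log2 scale (adjusted p = 0.0053), to 10.10, 10.61 and 9.59 on the K91A arrays, against 11.93, 11.88 and 11.85 on the WT arrays. In serine synthesis SER1 fell (-0.99, adjusted p = 0.0068) and SER3 rose (0.81, adjusted p = 0.0374). The calls of RKI1 and SER1 held without any 1 array. That of SER3 ended without K91A 1 (adjusted p = 0.0804), K91A 2 (0.0616), WT 1 (0.112), WT 2 (0.0676) or WT 3 (0.0921) and with median centring (0.64, 0.0849), and its value was -0.0098 as deposited. The brightest TKL2 probe set did not pass without WT 2 (1.41, adjusted p = 0.0617) or WT 3 (1.18, 0.0508). SER2 was not tested, since the filter on the mean over all arrays left it out, but it was dim only in K91A. It had 8.18, 7.97 and 8.84 on the K91A arrays, against 10.37, 10.44 and 10.72 on the WT arrays. Its groups did not overlap, and its log2 fold change was -2.18. With no filter 16 genes of this list were tested, of which 2 rose and 3 fell. The PRPP synthetases PRS1 to PRS5, whose product TRP4 uses, had values between -0.71 and -0.09 and did not pass, but PRS4 did without K91A 3 (-0.85, adjusted p = 0.0376).

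Of 9 genes that use tryptophan 1 rose and 2 fell. BNA2, which encodes tryptophan dioxygenase, the entry to the kynurenine route of NAD synthesis, rose to 12.27, 12.27 and 12.56 on the K91A arrays, against 10.80, 10.82 and 10.91 on the WT arrays. Its log2 fold change was 1.52 (SE 0.18, limma adjusted p = 0.0027), and the call held without any 1 array but was lost on the values as deposited (0.81, adjusted p = 0.413). BNA7, the next enzyme of that route, fell (-0.87, adjusted p = 0.0179), and so did MSW1, the mitochondrial tryptophanyl-tRNA synthetase (-1.05, adjusted p = 0.0193). WRS1, the cytosolic tryptophanyl-tRNA synthetase, had -0.80 (adjusted p = 0.133). The BNA7 call was lost without K91A 1 (adjusted p = 0.0521), WT 1 (0.0602) or WT 2 (0.0815), and the MSW1 call without WT 1 (0.0803) or WT 2 (0.0891). MSW1 had 9.85, 9.42 and 9.20 on the K91A arrays, with a mean of 9.49, below the line of 9.57 for dim levels. With the dimmest 50% left out MSW1 was not tested. BNA5 did not pass (-0.41) but did so without K91A 3 (-0.93, adjusted p = 0.0200).

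Of 6 genes for permeases of aromatic and other amino acids, AGP1, a broad permease, rose (0.79, limma adjusted p = 0.0148). TAT2, the high-affinity tryptophan permease, had 0.62 (adjusted p = 0.0893), and the tyrosine and tryptophan permease TAT1 had -0.55 (adjusted p = 0.0671). The AGP1 call was lost without WT 1 (adjusted p = 0.0649) or WT 2 (0.0665), with median centring (0.56, 0.0783) and on the values as deposited, where it was -0.08. TAT2 passed without K91A 3 (0.81, adjusted p = 0.0359) and TAT1 without K91A 1 (-0.71, 0.0494).

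GCN4, whose protein activates most of these genes and is set largely at translation, had a level of 14.94 in K91A and 14.79 in WT (log2 fold change 0.15, limma adjusted p = 0.374). Of the 6 genes of the general amino acid control 1 rose and 2 fell. PCL5, a cyclin that promotes the breakdown of Gcn4, rose (0.73, adjusted p = 0.0172). GCN20, which helps to activate the kinase Gcn2, fell (-0.87, adjusted p = 0.0170), as did GCN3, a subunit of the initiation factor eIF2B (-0.85, adjusted p = 0.0195). The PCL5 call was lost without K91A 1 (adjusted p = 0.0544), WT 1 (0.0665) or WT 2 (0.0744), with median centring (0.49, 0.148) and on the values as deposited, where it was -0.16. The GCN20 call was lost without K91A 1 (0.0511), WT 1 (0.0703) or WT 2 (0.0727), and the GCN3 call without WT 1 (0.0562), WT 2 (0.0810) or WT 3 (0.0535). The brightest GCN1 probe set had 0.16 and another had 2.24 (adjusted p = 0.0096), so its probe sets disagreed.

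**Figure D4:**
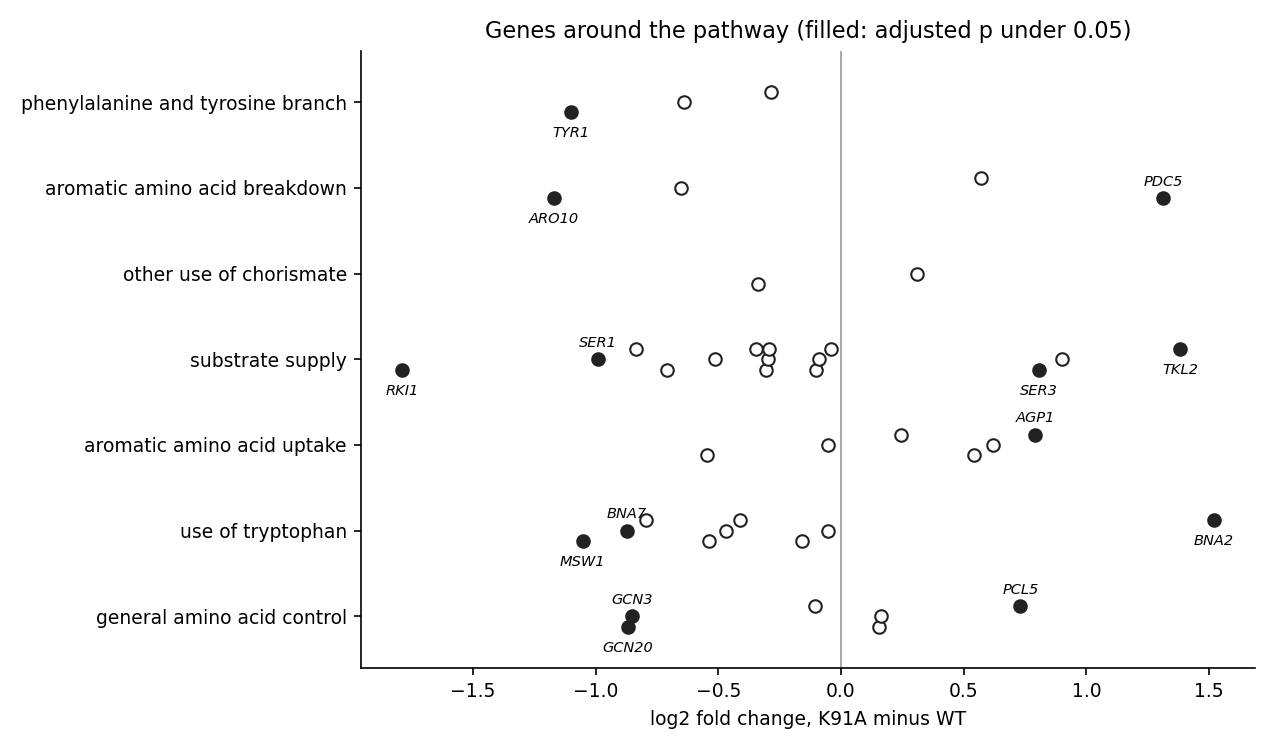
Log2 fold change, K91A minus WT, of the 45 tested genes in 7 lists around the pathway, with 1 point per gene by its brightest probe set (offsets within a row only separate points). Filled points passed an adjusted p of 0.05, 6 of them to the right of 0 and 8 to the left, between RKI1 at -1.79 and BNA2 at 1.52.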

How the data were processed

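The authors deposited a linear intensity for every probe set on every array. The software, background correction and scaling behind it are not given in the sources used here. Names came from the platform annotation, with symbols brought up to date through a RefSeq gene table (assembly R64): 6504 had 1 symbol, 328 several and 2443 none. The log2 of the intensity plus 16 was quantile normalized. The 60 controls, 33 probe sets measured on under 2 arrays of a group and the 2311 dimmest (25%) were not tested. Tests used limma 3.58.1 under R 4.3.3, with moderated variances that follow the mean and Benjamini-Hochberg adjustment, a procedure also tested on simulated data. A gene with several probe sets is represented by the brightest. No detection calls were given, and precision is limited by how few arrays there are.

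The members and lists were chosen with earlier results of these data known. Named are all members, list genes past the threshold, up to 2 of each list without calls, all strain markers, the 2 genes on each side of TRP1 and the 5 most like it. Others are named for their role or their nearness to a call and were chosen after their values were seen. Alternatives covered the replicate block, each array left out, K91A 3 counted as WT, the pseudocount, normalization, filter, variance model, gene length, and WT 1 and WT 2 averaged. The intervals from 6 arrays alone for TRP1 against other steps were added after seeing the data. No sequence table was used here.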

Additional observations from a re-analysis of the deposited data

How the results depend on the processing

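TRP1 kept its direction under all 18 alternatives and its call under 17, with values between 4.11 and 5.62, and the exception was K91A 3 counted as WT (4.11, adjusted p = 0.320). That setting called 0 probe sets (1056 at an unadjusted p under 0.05 by limma), 0 members in either direction, and for 0 of 9 steps a difference from TRP1. In place of 2091, the number of probe sets called was 703 on the values as deposited (32 higher and 671 lower, in place of 1068 and 1023), 1372 with the dimmest 50% left out, where fewer were tested, and 877 with WT 1 and WT 2 averaged. Leaving out 1 array gave 841 to 2300, with 925 without WT 1 and 841 without WT 2. The number of members called lower, 2 of 9, was 0 to 2 with 1 array left out (0 without WT 1 or WT 2, 1 without WT 3) and 0 with WT 1 and WT 2 averaged, where limma gave 3 at an unadjusted p under 0.05 in each of those settings. It was 3 with median centring, array weights or the length trend removed. Of 45 tested genes around the pathway 14 were called, and 3 to 18 with 1 array left out (4 without WT 1, 3 without WT 2), 2 on the values as deposited, 3 with WT 1 and WT 2 averaged and 0 with K91A 3 counted as WT. TRP5 changed sign with array weights (0.035) and without K91A 2, and ARO1 without K91A 2. With 1 array left out TRP5 lay between -0.26 and 0.041 and ARO1 between -0.24 and 0.070. The cause was not tested. TRP2, TRP3, TRP4, ARO2, ARO3, ARO4 and ARO7 were negative under all 18. The median of all probe sets was -0.82 as deposited and -0.18 with median centring, in place of -0.07. All 9 steps differed from TRP1 with intervals from the 6 arrays alone, an alternative chosen after seeing the data. In the main fit limma called such a difference for 100% of the other probe sets, so the count is not particular to the pathway.

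Whether the replicate numbers pair the samples could not be settled. Deviations of same-numbered arrays from their group means correlated at 0.17, -0.15 and -0.0052, and those of other pairs at -0.21 to 0.16. The deviations within a group of 3 arrays are tied to each other, so such values cannot decide it. With the replicate block 1535 probe sets were called, and TRP1 (adjusted p = 0.0100), TRP2 (0.0458) and ARO2 (0.0363) still passed. No depth can be given for arrays, and dim levels, such as that of TRP1 in WT, are limited by an unknown background.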
